A study of Mus musculus with 13 samples.

Results

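The interferon response genes described here are 39 mouse genes chosen by name because interferons are known to induce them. All 39 were among the 24061 gene symbols of each deposited count table, and 38 had enough reads to be tested. They were measured by sequencing poly(A) RNA from 13 hearts, 1 library per heart. The mice were male C57BL/6N, aged 13 weeks and fed chow. There were 5 hearts of genotype E3A/E3A, 4 of WT/E3A and 4 of WT/WT. E3A is an allele of Cpt1b, carried on both copies in E3A/E3A mice and on 1 in WT/E3A mice, in a model with decreased sensitivity of CPT1B to malonyl-CoA. CPT1B is the heart and muscle enzyme that starts the entry of long-chain fatty acids into mitochondria, and malonyl-CoA is its inhibitor. The labels mark 4 libraries as potential outliers, which are E3A/E3A replicates 1 and 2, WT/E3A replicate 1 and WT/WT replicate 1. They also give each heart a title prefix, C2, C3, C4 or C6, without saying what it stands for. C2 held E3A/E3A replicates 1 and 2 and WT/WT replicate 1, all with the note. C3 held E3A/E3A replicates 3 and 5, WT/E3A replicate 2 and WT/WT replicate 2. C4 held E3A/E3A replicate 4 and WT/E3A replicates 1, 3 and 4, the first of these with the note, and C6 held WT/WT replicates 3 and 4.

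Interferons are secreted proteins that warn cells of infection. Type I and type II interferons bind separate receptors at the cell surface, and receptor-bound Janus kinases then phosphorylate STAT proteins. A complex that holds STAT2 and IRF9 binds the interferon-stimulated response element (ISRE) in promoters, and the gamma-activated site (GAS) serves the response to interferon gamma. The induced genes encode sensors of viral RNA, blocks to viral growth, GTPases that attack intracellular microbes, and the parts of the antigen-presentation pathway. In an uninfected heart many of them are expressed at a low constant level by muscle, endothelial, stromal and resident immune cells.

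The 150 bases before the annotated start of 6 members are printed. These were picked for their ISRE matches among the members named below, so all 6 hold a match by choice. Bst2 and Isg15 stood high in the noted libraries, Gbp7 and Irgm2 stood low in them, Gbp7 and Igtp were the pair that varied most alike, and Ifit1 was among the members with the lowest p in a genotype comparison. Sequences are from RefSeq on GRCm38.p6 and run 5′ to 3′ on the strand of the gene. Capitals mark matches to the ISRE core, which is GAAA and GAAA separated by any 2 bases, or TTTC and TTTC so separated when it lies on the opposite strand.
Isg15 (chr4:156200819-156200968, minus strand): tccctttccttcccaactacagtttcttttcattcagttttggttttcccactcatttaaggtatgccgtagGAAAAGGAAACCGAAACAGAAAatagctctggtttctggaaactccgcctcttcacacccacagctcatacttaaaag
Bst2 (chr8:71537473-71537622, minus strand): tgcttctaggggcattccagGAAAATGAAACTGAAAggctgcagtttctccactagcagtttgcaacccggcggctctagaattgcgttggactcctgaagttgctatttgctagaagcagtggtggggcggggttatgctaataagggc
Ifit1 (chr19:34640739-34640888, plus strand): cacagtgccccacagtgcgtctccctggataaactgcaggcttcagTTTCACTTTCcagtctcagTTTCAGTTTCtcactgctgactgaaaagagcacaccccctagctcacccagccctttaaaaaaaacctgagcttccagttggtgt
Gbp7 (chr3:142530186-142530335, plus strand): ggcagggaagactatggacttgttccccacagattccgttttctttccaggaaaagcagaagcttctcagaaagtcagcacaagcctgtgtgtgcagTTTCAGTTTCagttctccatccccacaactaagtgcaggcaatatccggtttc
Irgm2 (chr11:58214827-58214976, plus strand): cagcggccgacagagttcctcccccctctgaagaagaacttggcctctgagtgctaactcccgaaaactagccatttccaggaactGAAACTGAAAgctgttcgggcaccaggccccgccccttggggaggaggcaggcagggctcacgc
Igtp (chr11:58199406-58199555, plus strand): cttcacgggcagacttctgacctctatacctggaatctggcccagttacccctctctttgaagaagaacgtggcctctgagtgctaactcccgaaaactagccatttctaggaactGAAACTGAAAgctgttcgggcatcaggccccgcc
Isg15 held 3 overlapping matches, between positions -78 and -57 from its start, and Bst2 held 2 overlapping matches between -130 and -115. Ifit1 had 2 separate matches, at -104 to -95 and at -85 to -76, while Gbp7, Irgm2 and Igtp had 1 each. Over windows of 250 bases before to 50 bases after a start, the RefSeq table covered 30 of the 39 members in 34 windows. An ISRE core lay in 16 of these 34 windows (47.1%), against 3.44% of all 32851 windows of that length. The covered members with no ISRE core were Irf1, Irf7, Irf9, Trim25, Ifit2, Oasl1, Oasl2, Cmpk2, Xaf1, Ifi44, Ifi35, Psmb8, Psmb9 and Tap1. The GAS core, TTC and GAA separated by any 3 bases, which reads the same on both strands, lay in 9 of the 34 member windows (26.5%), against 8.3% of all windows. It can overlap an ISRE core, as it did in Bst2. A match is a run of letters and not a measured binding site.

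No member differed between genotypes past the threshold. Expression is given as CPM, a gene's reads per fixed number of library reads after TMM scaling over all 13 libraries, and fold changes are edgeR's, as log2 of the first genotype over the second. Calls were made where edgeR's quasi-likelihood test, adjusted over all genes tested, gave p below 0.05. With all 13 libraries, 0 of 38 members were called in E3A/E3A against WT/WT, where 0.00695% of all genes were called. In WT/E3A against WT/WT and in E3A/E3A against WT/E3A the count was also 0 of 38, against 0% of all genes in both. At an unadjusted p under 0.05 the members counted 0, 0 and 0 in these 3 comparisons, against 1.2%, 0.813% and 1.45% of all genes. With the 9 libraries that carry no note, 3 per genotype, 0 of 38 members were called in each comparison. Among all genes 0.271% were then called in E3A/E3A against WT/WT, 0.0209% in WT/E3A against WT/WT and 0.0417% in E3A/E3A against WT/E3A. Unadjusted p-values under 0.05 were found for 4 members (10.5%) in the first, 2 (5.26%) in the second and 6 (15.8%) in the third. They were Xaf1, Ifit1, Irf7 and Oasl1 in the first, Ifi35 and Parp14 in the second, and Isg15, Oasl1, Ifih1, Stat2, Ifi44 and Oasl2 in the third. The shares over all genes were 7.69%, 6.36% and 6.91%. DESeq2 and limma-voom also called 0 members in all 3 comparisons, with 13 libraries and with 9. Of all genes, in the same order of comparisons, DESeq2 called 0.167%, 0% and 0.0278% with 13 libraries and 0.682%, 0.132% and 0.23% with 9. Limma-voom called 0.00695%, 0% and 0% with 13 libraries and 0.278%, 0.0139% and 0.0139% with 9.

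The direction of the differences was not even across the list. In E3A/E3A against WT/E3A, 33 of 38 members had a higher mean in E3A/E3A hearts, with a median log2 fold change of 0.15 in the 13 libraries and 0.13 in the 9. Over all genes tested, 45% and 50.8% were higher, with medians of -0.0152 and 0.00268. In WT/E3A against WT/WT, 10 of 38 members were higher with 13 libraries (median -0.05) and 12 of 38 with 9 (median -0.07), against 49.4% and 49.5% of all genes. In E3A/E3A against WT/WT, 25 were higher with 13 libraries (median 0.03) and 24 with 9 (median 0.07), against 43.7% and 50.6% of all genes. The 3 comparisons share their hearts, so their directions are not separate results. Single hearts moved these counts. Without WT/WT replicate 2, 16 of 39 members were higher in E3A/E3A than in WT/WT with 13 libraries, and 32 of 39 without E3A/E3A replicate 4. In WT/E3A against WT/WT with 13 libraries, 17 of 39 were higher without WT/WT replicate 1, and with 9 libraries 19 of 39 without WT/E3A replicate 4 and 8 of 38 without WT/E3A replicate 2. In E3A/E3A against WT/E3A the lowest count was 24 of 38, with 9 libraries and without E3A/E3A replicate 3. The directions also depended on the title prefix. With the prefix as a block in the model, 33 of 38 members were higher in WT/E3A than in WT/WT hearts, with a median of 0.11 in the 13 libraries and 0.14 in the 9. With the block, 22 of 38 members (13 libraries) and 27 of 38 (9 libraries) were higher in E3A/E3A than in WT/E3A, and 29 and 35 of 38 were higher in E3A/E3A than in WT/WT. Medians over all genes with the block were 0.0274 (13 libraries) and -0.00034 (9 libraries) in WT/E3A against WT/WT. They were 0.00405 and 0.00162 in E3A/E3A against WT/E3A, and 0.0146 and 0.00595 in E3A/E3A against WT/WT. The 2 hearts of C6 then carry no information on genotype, so the comparison with WT/WT in the 9 libraries rests on WT/WT replicate 2.

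The size of difference that these hearts could still hold, in the fit with genotype alone, is given by the 95% intervals of the fold changes. These intervals do not allow for the title prefix, whose block changed the directions above. In the 9 libraries the interval lay within 1 log2 unit of no change for 38 of 38 members in E3A/E3A against WT/WT and for 37 of 38 in the other two comparisons. It lay within 0.5 log2 units for 24 members in E3A/E3A against WT/WT, for 29 in WT/E3A against WT/WT and for 22 in E3A/E3A against WT/E3A. The median half-width was 0.264, 0.27 and 0.269 log2 units in that order, and 0.475, 0.503 and 0.48 with the 13 libraries. With 9 libraries the widest bounds were an upper one of 1.084 for Mx1 in E3A/E3A against WT/E3A and a lower one of -1.02 for Tap1 in WT/E3A against WT/WT. p-values here measure the spread between hearts that the labels list as separate samples.

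**Figure D1:**
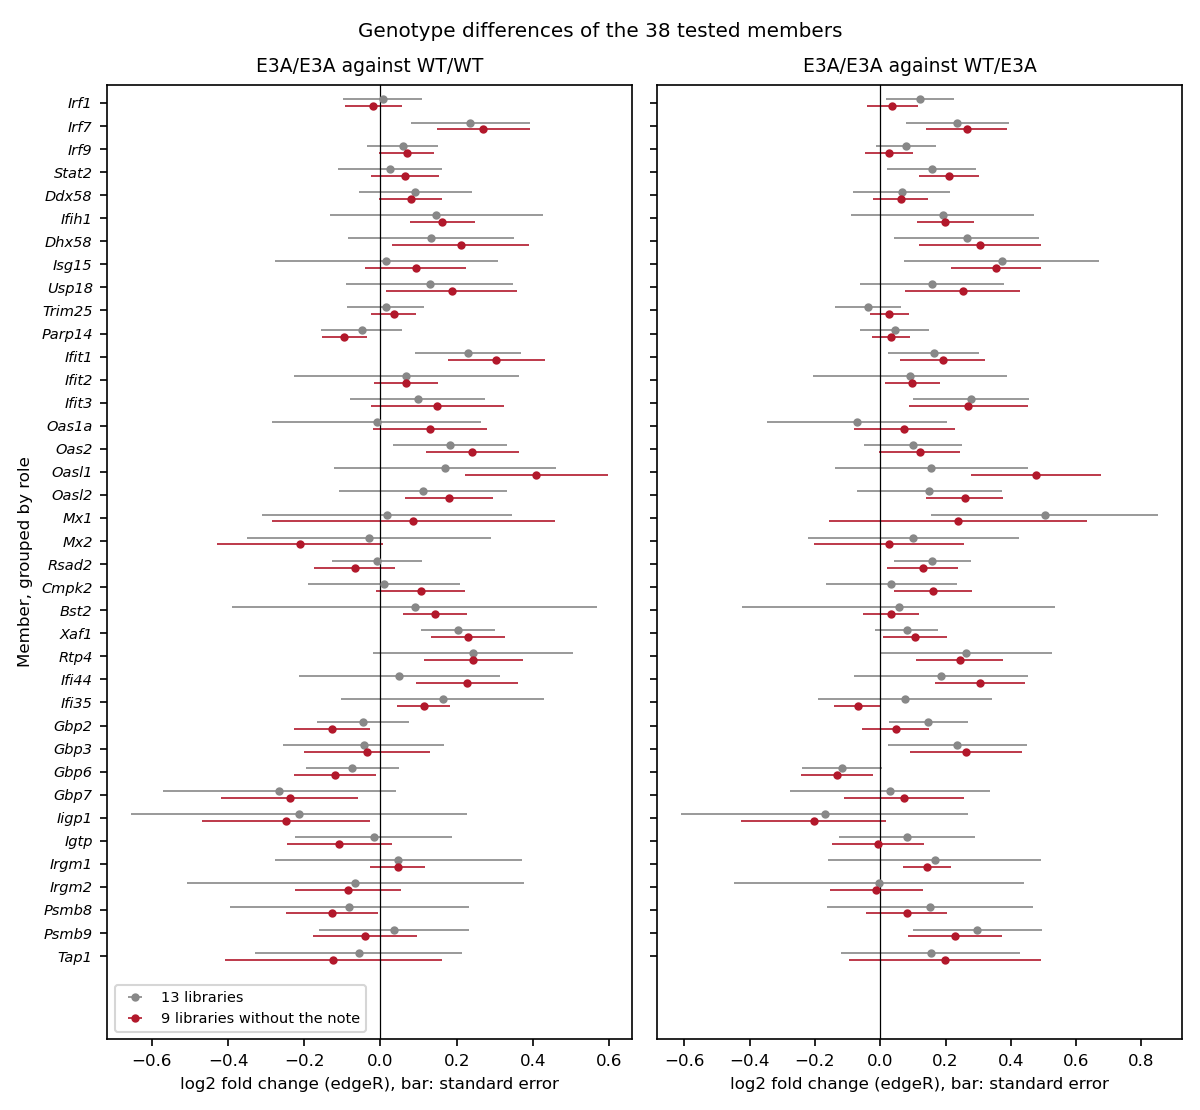
Log2 fold changes (horizontal axis) of the 38 tested members in E3A/E3A against WT/WT (left) and E3A/E3A against WT/E3A (right). Points are edgeR estimates from 13 libraries (grey) or the 9 without the note (red), and bars are standard errors. In the right panel 33 of 38 members lie above 0 in each fit, and no member was called in either panel.

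Values of single hearts follow by role, in replicate order. The first 2 E3A/E3A values and the first value of each other genotype come from noted libraries. Depth was 20082284 to 52602883 counted reads per library, and reads of the 39 members made up 0.0466% to 0.0723% of a library. Levels between genes are compared per kilobase of exon (CPM per kb), as means over the 9 libraries without the note.

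Among the transcription factors, IRF1 and IRF7 switch on interferons and their targets, and IRF9 and STAT2 are parts of the complex that binds the ISRE. Irf1 was the highest of the 4 at 6.38 CPM per kb, followed by Stat2 at 5.07, Irf9 at 3.51 and Irf7 at 2.64. Irf1 was at 26.9, 31.004, 27.8, 25.5 and 22.9 CPM in the E3A/E3A hearts, at 24.1, 25.4, 23.5 and 25.7 CPM in the WT/E3A hearts and at 29.3, 23.9, 27.3 and 26.3 CPM in the WT/WT hearts. The genotypes overlapped, and the widest spread was between E3A/E3A hearts. Irf7 was at 14.2, 10.9, 13.3, 9.07 and 11.3 CPM in the E3A/E3A hearts, at 11.9, 9.79, 10.001 and 8.22 CPM in the WT/E3A hearts and at 11.96, 9.38, 9.05 and 9.501 CPM in the WT/WT hearts. Irf7 stood highest in noted libraries and in E3A/E3A replicates 3 and 5, and E3A/E3A replicate 4 lay among the WT/WT hearts, so the genotypes overlapped. Its log2 fold change in E3A/E3A against WT/WT was 0.24 (SE 0.16, adjusted p = 1) with 13 libraries and 0.27 (SE 0.12, adjusted p = 0.644) with 9. Against WT/E3A it was 0.24 (SE 0.16, adjusted p = 1) with 13 libraries. Irf9 spanned 17.3 to 20.5 CPM and Stat2 25.1 to 34.8 CPM in the 9 libraries. Stat2 was among the 6 members with an unadjusted p under 0.05 in E3A/E3A against WT/E3A, at 0.21 (SE 0.09, adjusted p = 0.717).

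The RNA sensors RIG-I (Ddx58) and MDA5 (Ifih1) bind viral RNA in the cytosol, and LGP2 (Dhx58) modulates them. Ddx58 was at 17.6, 16.4, 21.7, 18.5 and 20.3 CPM in the E3A/E3A hearts, at 14.2, 21.3, 19.7 and 17.05 CPM in the WT/E3A hearts and at 13.7, 19.6, 18.5 and 19.2 CPM in the WT/WT hearts. The genotypes overlapped, and the noted libraries included the lowest values. Ifih1 was at 8.76, 9.101, 14.2, 12.9 and 13.7 CPM in the E3A/E3A hearts, at 5.61, 12.7, 12.5 and 10.4 CPM in the WT/E3A hearts and at 5.91, 11.9, 12.6 and 12.1 CPM in the WT/WT hearts. In the 9 libraries the E3A/E3A hearts lay just above all WT/E3A and WT/WT hearts, while the 4 noted libraries lay below all 9. The Ifih1 fold change in E3A/E3A against WT/E3A was 0.20 (SE 0.09, adjusted p = 0.717) with 9 libraries. Dhx58 was low, at 1.83 to 2.98 CPM in the 9 libraries and 0.724 CPM per kb.

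ISG15 is a ubiquitin-like protein that is attached to other proteins during the response. USP18 removes it and also damps the type I receptor, TRIM25 is a ubiquitin ligase that acts on RIG-I, and PARP14 is an ADP-ribosyltransferase. Isg15 was at 4.76, 4.64, 3.16, 3.01 and 2.86 CPM in the E3A/E3A hearts, at 4.27, 2.59, 2.36 and 2.16 CPM in the WT/E3A hearts and at 6.02, 2.61, 2.99 and 2.93 CPM in the WT/WT hearts. Without the noted libraries, the E3A/E3A and the WT/WT hearts each lay above the WT/E3A hearts and overlapped each other, and the 4 noted libraries lay above the other 9. In E3A/E3A against WT/E3A the Isg15 fold change was 0.35 (SE 0.14, adjusted p = 0.709) with 9 libraries, the lowest p of a member in that comparison. Trim25 was at 66.3, 65.5, 62.7, 59.5 and 66.8 CPM in the E3A/E3A hearts, at 78.4, 61.4, 65.7 and 58.02 CPM in the WT/E3A hearts and at 69.9, 62.7, 59.3 and 62.2 CPM in the WT/WT hearts. Trim25 varied little, and its genotypes overlapped. Parp14 was at 39.2, 44.2, 45.2, 43.1 and 45.5 CPM in the E3A/E3A hearts, at 37.7, 45.2, 45.3 and 40.2 CPM in the WT/E3A hearts and at 36.9, 45.95, 47.1 and 49.7 CPM in the WT/WT hearts. In the 9 libraries the WT/WT hearts lay above both other genotypes, but WT/WT replicate 1, a noted library, was the lowest of all. The Parp14 fold change in WT/E3A against WT/WT was -0.13 (SE 0.06, adjusted p = 0.771) with 9 libraries. Usp18 spanned 3.05 to 5.06 CPM in the 9.

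IFIT proteins bind foreign RNA ends and block their translation. Ifit1 was at 5.12, 5.75, 5.08, 4.45 and 5.77 CPM in the E3A/E3A hearts, at 5.299, 4.803, 4.41 and 4.15 CPM in the WT/E3A hearts and at 5.47, 3.67, 4.25 and 4.44 CPM in the WT/WT hearts. Without the noted libraries, the lowest E3A/E3A heart was almost level with the highest WT/WT heart, and E3A/E3A and WT/E3A overlapped. With the noted libraries included, E3A/E3A and WT/WT overlapped too. The Ifit1 fold change in E3A/E3A against WT/WT was 0.23 (SE 0.14, adjusted p = 1) with 13 libraries and 0.30 (SE 0.13, adjusted p = 0.586) with 9. Ifit2 was at 11.7, 13.5, 20.6, 17.1 and 20.4 CPM in the E3A/E3A hearts, at 8.43, 18.2, 19.4 and 16.6 CPM in the WT/E3A hearts and at 8.22, 17.7, 18.3 and 19.4 CPM in the WT/WT hearts. All 4 noted libraries lay below the other 9, in which the genotypes overlapped. Ifit3 was at 7.58, 5.04, 7.15, 4.86 and 5.85 CPM in the E3A/E3A hearts, at 5.23, 5.603, 4.96 and 4.35 CPM in the WT/E3A hearts and at 6.48, 4.22, 6.69 and 5.47 CPM in the WT/WT hearts. Ifit3 overlapped between genotypes, with the highest of the 9 in E3A/E3A replicate 3 and the lowest in WT/WT replicate 2. Its fold change in E3A/E3A against WT/E3A was 0.28 (SE 0.18, adjusted p = 1) with 13 libraries. Reads that fit Ifit3 and its near copy Ifit3b may have been split or dropped.

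The OAS family makes oligoadenylates that activate RNase L. OASL1 and OASL2 are related proteins, of which OASL1 is known in mouse to repress translation of Irf7 mRNA. Oas2 was at 14.05, 19.4, 14.7, 14.04 and 19.4 CPM in the E3A/E3A hearts, at 16.9, 13.6, 15.2 and 15.1 CPM in the WT/E3A hearts and at 17.1, 15.1, 11.9 and 13.3 CPM in the WT/WT hearts. Oas2, the highest of the family per kb at 3.3, overlapped between genotypes. Oasl1 was at 2.04, 2.36, 2.09, 1.697 and 2.22 CPM in the E3A/E3A hearts, at 3.097, 1.51, 1.21 and 1.63 CPM in the WT/E3A hearts and at 2.89, 1.399, 1.298 and 1.76 CPM in the WT/WT hearts. Among the 9, E3A/E3A hearts lay above WT/E3A hearts and overlapped WT/WT hearts, but the highest values of all were the noted WT/E3A and WT/WT libraries. The Oasl1 fold change in E3A/E3A against WT/E3A was 0.48 (SE 0.20, adjusted p = 0.714) with 9 libraries, and against WT/WT it was 0.41 (SE 0.19, adjusted p = 0.645). Oasl2, with a fold change of 0.26 (SE 0.12, adjusted p = 0.717) in E3A/E3A against WT/E3A with 9 libraries, spanned 7.59 to 11.4 CPM in them. Oas1a spanned 1.85 to 2.4 CPM, and its reads may be shared with near-identical Oas1 genes such as Oas1g. Oas3 had 99 reads in all, 2 to 16 per library, and was not tested.

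The Mx proteins are GTPases against RNA viruses, and C57BL/6 mice are known to carry a defective Mx1. Mx1 was at 0.865, 0.669, 0.797, 0.234 and 0.766 CPM in the E3A/E3A hearts, at 0.378, 0.424, 0.576 and 0.488 CPM in the WT/E3A hearts and at 0.939, 0.459, 0.5901 and 0.641 CPM in the WT/WT hearts. Mx1 rests on 264 reads over all libraries, 8 to 41 per library. E3A/E3A replicate 4 was the lowest of all hearts, and the genotypes overlapped. In WT/E3A against WT/WT the Mx1 fold change was -0.49 (SE 0.36, adjusted p = 1) with 13 libraries and -0.15 (SE 0.39, adjusted p = 0.967) with 9. With the title prefix as a block and 13 libraries it was 0.25. Mx2 was at 3.59, 3.48, 2.62, 1.23 and 2.14 CPM in the E3A/E3A hearts, at 3.82, 1.79, 2.05 and 2.03 CPM in the WT/E3A hearts and at 3.69, 2.22, 2.24 and 2.47 CPM in the WT/WT hearts. E3A/E3A replicate 4 was again the lowest, and the 4 noted libraries were the highest. Among the other 9 hearts those of WT/WT lay above those of WT/E3A.

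Of the other antiviral and induced genes, tetherin (Bst2) holds budding virus at the cell surface. Viperin (Rsad2) makes a chain-terminating nucleotide, and Cmpk2, its neighbour, encodes a nucleotide kinase of mitochondria. Bst2 had the highest level of all members per kb, at 18.5. Bst2 was at 41.4, 35.4, 18.4, 15.4 and 18.2 CPM in the E3A/E3A hearts, at 48.2, 17.8, 16.7 and 16.4 CPM in the WT/E3A hearts and at 49.5, 15.2, 17.1 and 14.9 CPM in the WT/WT hearts. The genotypes overlapped, and the 4 noted libraries averaged 2.61 times the mean of the other 9. Rsad2 was at 25.4, 22.4, 28.7, 20.6 and 22.3 CPM in the E3A/E3A hearts, at 19.8, 22.9, 21.4 and 21.4 CPM in the WT/E3A hearts and at 20.8, 23.4, 27.2 and 24.9 CPM in the WT/WT hearts. Without the noted libraries, WT/WT hearts lay above the WT/E3A hearts, with E3A/E3A hearts on both sides. Its fold change in WT/E3A against WT/WT was -0.17 (SE 0.12, adjusted p = 1) with 13 libraries and -0.20 (SE 0.11, adjusted p = 0.801) with 9. The prefix block gave 0.0754 with 13. Xaf1 was at 6.999, 7.94, 8.55, 7.34 and 7.99 CPM in the E3A/E3A hearts, at 7.19, 7.02, 7.38 and 7.77 CPM in the WT/E3A hearts and at 6.53, 6.33, 7.12 and 6.98 CPM in the WT/WT hearts. Xaf1, which encodes a partner of the apoptosis inhibitor XIAP, was higher in each of the 3 E3A/E3A hearts without the note than in any WT/WT heart. E3A/E3A replicate 1, a noted library, lay between WT/WT hearts. The Xaf1 fold change in E3A/E3A against WT/WT was 0.20 (SE 0.10, adjusted p = 1) with 13 libraries and 0.23 (SE 0.10, adjusted p = 0.586) with 9, the lowest p of any member in this comparison in both. Ifi35 was at 30.6, 26.9, 17.4, 16.4 and 17.99 CPM in the E3A/E3A hearts, at 28.6, 18.6, 18.3 and 17.3 CPM in the WT/E3A hearts and at 30.3, 16.9, 15.1 and 15.7 CPM in the WT/WT hearts. Ifi35, the gene of a protein that binds NMI, lay higher in WT/E3A than in WT/WT hearts in the 9 libraries, with E3A/E3A hearts overlapping both. Its fold change in WT/E3A against WT/WT was 0.18 (SE 0.07, adjusted p = 0.736) with 9 libraries. Cmpk2 spanned 10.1 to 15 CPM, Rtp4 5.48 to 8.27 CPM and Ifi44 4.03 to 6.45 CPM in the 9. Ifi44 had an unadjusted p under 0.05 in E3A/E3A against WT/E3A, at 0.31 (SE 0.14, adjusted p = 0.717).

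Guanylate-binding proteins (GBPs) and immunity-related GTPases (IRGs) act on vacuoles that hold bacteria or parasites, and interferon gamma is their main inducer. Gbp2 was at 16.2, 14.1, 15.9, 13.7 and 12.5 CPM in the E3A/E3A hearts, at 11.3, 14.6, 13.3 and 13.2 CPM in the WT/E3A hearts and at 13.5, 13.5, 16.8 and 16.05 CPM in the WT/WT hearts. Gbp2, the highest GBP per kb at 5.72, overlapped between genotypes. In WT/E3A against WT/WT its fold change was -0.19 (SE 0.13, adjusted p = 1) with 13 libraries and -0.17 (SE 0.10, adjusted p = 0.823) with 9, and with the prefix block and 13 libraries it was 0.0818. Gbp7 was at 18.7, 18.1, 34.5, 26.4 and 26.7 CPM in the E3A/E3A hearts, at 13.7, 32.3, 26.98 and 24.5 CPM in the WT/E3A hearts and at 15.6, 27.8, 41.9 and 34.5 CPM in the WT/WT hearts. All 4 noted libraries lay below the other 9, in which WT/WT replicate 3 was the highest. Gbp3 spanned 10.8 to 19 CPM and Gbp6 15 to 21.1 CPM in the 9, and reads may be shared within the GBP family, as between Gbp6 and Gbp10. Iigp1 was at 29.2, 27.9, 54.3, 39.1 and 49.4 CPM in the E3A/E3A hearts, at 15.5, 62.2, 59.5 and 42.7 CPM in the WT/E3A hearts and at 15.4, 43.9, 66.7 and 59.6 CPM in the WT/WT hearts. Iigp1 was the highest IRG per kb at 9.11. Its genotypes overlapped in the 9 libraries, and the noted libraries lay below all of them. Igtp was at 14.1, 12.9, 16.9, 13.8 and 13.4 CPM in the E3A/E3A hearts, at 9.12, 17.3, 14.1 and 13.4 CPM in the WT/E3A hearts and at 9.62, 13.4, 18.8 and 15.9 CPM in the WT/WT hearts. Igtp, at 7.53 CPM per kb, overlapped between genotypes. Irgm2 was at 13.7, 15.6, 30.1, 23.1 and 23.96 CPM in the E3A/E3A hearts, at 7.43, 29.5, 26.5 and 22.1 CPM in the WT/E3A hearts and at 7.05, 23.3, 29.4 and 29.6 CPM in the WT/WT hearts. The noted libraries lay below the other 9, and genotypes overlapped within the 9. Igtp and Irgm2 overlap on chromosome 11 in GENCODE, so their reads may not be fully separate. Irgm1 spanned 17.7 to 21.6 CPM in the 9.

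Psmb8 and Psmb9 encode catalytic subunits of the immunoproteasome, which cuts proteins into peptides, and Tap1 a subunit of the transporter that carries those peptides to class I molecules. Psmb8 was at 21.3, 17.6, 12.98, 10.9 and 9.56 CPM in the E3A/E3A hearts, at 20.02, 12.7, 9.97 and 9.399 CPM in the WT/E3A hearts and at 24.3, 11.7, 13.2 and 11.9 CPM in the WT/WT hearts. All 4 noted libraries lay above the other 9, in which the genotypes overlapped. Psmb9 was at 10.1, 7.004, 6.83, 6.26 and 5.65 CPM in the E3A/E3A hearts, at 7.16, 6.36, 4.73 and 5.13 CPM in the WT/E3A hearts and at 8.47, 5.503, 7.63 and 6.41 CPM in the WT/WT hearts. Psmb9 was lowest in WT/E3A replicates 3 and 4, and the genotypes overlapped. Its fold change was 0.30 (SE 0.20, adjusted p = 1) in E3A/E3A against WT/E3A with 13 libraries and -0.27 (SE 0.14, adjusted p = 0.792) in WT/E3A against WT/WT with 9. With the prefix block these were 0.0495 and 0.0738. Tap1 was at 26.98, 15.7, 19.9, 14.8 and 13.03 CPM in the E3A/E3A hearts, at 22.8, 19.3, 12.5 and 10.5 CPM in the WT/E3A hearts and at 22.6, 13.2, 20.97 and 18.6 CPM in the WT/WT hearts. Tap1 varied 2-fold between the 9 hearts without the note, with WT/E3A replicate 4 lowest and WT/WT replicate 3 highest. Psmb9 and Tap1 overlap on opposite strands of chromosome 17, and strand settings are not given in the sources used here.

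**Figure D2:**
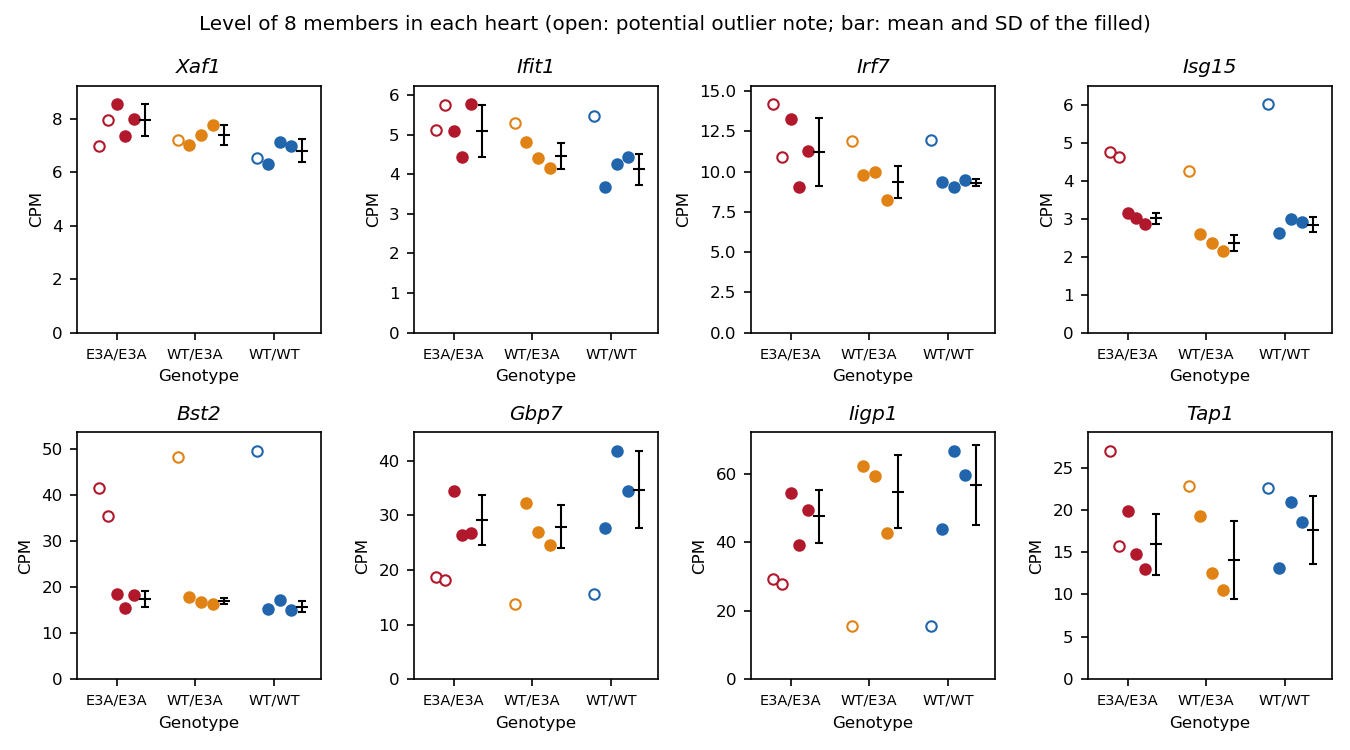
CPM (vertical axis) of 8 members in each of 13 hearts, by genotype. Open circles are libraries with the potential outlier note, filled circles the others, and bars the mean and SD of the filled circles. The open circles stand above the filled ones for Bst2 and Isg15 and below them for Gbp7 and Iigp1.

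Hearts of the same genotype differed, and many members varied together between hearts. For each heart, log2 CPM of every member was taken relative to its mean over the 9 libraries without the note and averaged over the 38 members. E3A/E3A replicates 3, 4 and 5 came to 0.201, -0.112 and 0.082. WT/E3A replicates 2, 3 and 4 came to 0.031, -0.061 and -0.171, and WT/WT replicates 2, 3 and 4 to -0.100, 0.065 and 0.066. In E3A/E3A replicate 3, 36 of 38 members were above their mean, and in WT/E3A replicate 4 only 7 were. E3A/E3A replicate 4 and WT/WT replicate 2 had 8 each, so hearts with few members above the mean occurred in all 3 genotypes. Such counts over all genes are not given here. Because members varied together, a count is not that many separate observations.

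In the 9 libraries the typical member varied more between hearts of a genotype than the typical gene, in a comparison not matched for expression level. Their median SD of log2 CPM within genotype was 0.172, against 0.108 over all genes tested, while with all 13 libraries it was 0.329 against 0.342. Mx1, with 8 to 41 reads per library, had the largest SD at 0.534. Tap1 (0.373), Mx2 (0.325), Iigp1 (0.286) and Ifit3 (0.269) followed, and Parp14 (0.0702) and Ifi35 (0.0722) varied least. Irf1, Irf9, Ifih1, Isg15, Trim25, Parp14, Xaf1, Ifi35 and Irgm1 varied less than most genes tested.

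With genotype means removed, the mean Pearson r between members over the 9 hearts was 0.402, against 0.000173 over all genes tested. These correlations are descriptions over 9 hearts, some of which share a title prefix, and the prefix was not removed. Of 703 pairs, 84.6% had r above 0 and 46.9% above 0.5. By role, the mean r was 0.955 for the pair of Mx genes, 0.876 for antigen processing, 0.869 for the IRGs and 0.753 for the RNA sensors. It was 0.684 for the IFITs, 0.563 for the ISG15 system with Parp14, 0.421 for the transcription factors, 0.288 for the 7 other antiviral and induced genes, 0.254 for the GBPs and 0.18 for the OAS family. For the Mx pair, E3A/E3A replicate 4 lay furthest of the 9 hearts from their mean, at -1.02 for Mx1 (8 reads) and -0.71 for Mx2. The r of the pair without that heart was not computed. The highest r was 0.991, between Gbp7 and Igtp, which lie on different chromosomes. Gbp3 with Tap1 (0.979) and Isg15 with Gbp3 (0.977) were also on different chromosomes. Oas2 and Gbp6 stood apart, with mean r values to the other members of -0.125 and -0.00553, and the lowest r of a pair was -0.867, between Irf1 and Gbp6. Neighbours within 200 kb were not always alike, since r was 0.911 for Gbp3 and Gbp7 but 0.475 for Rsad2 and Cmpk2, 0.318 for Oasl1 and Oasl2 and -0.0553 for Oas1a and Oas2. With all 13 libraries the mean r was 0.081, although it was 0.943 for the IRGs and 0.866 for antigen processing.

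**Figure D3:**
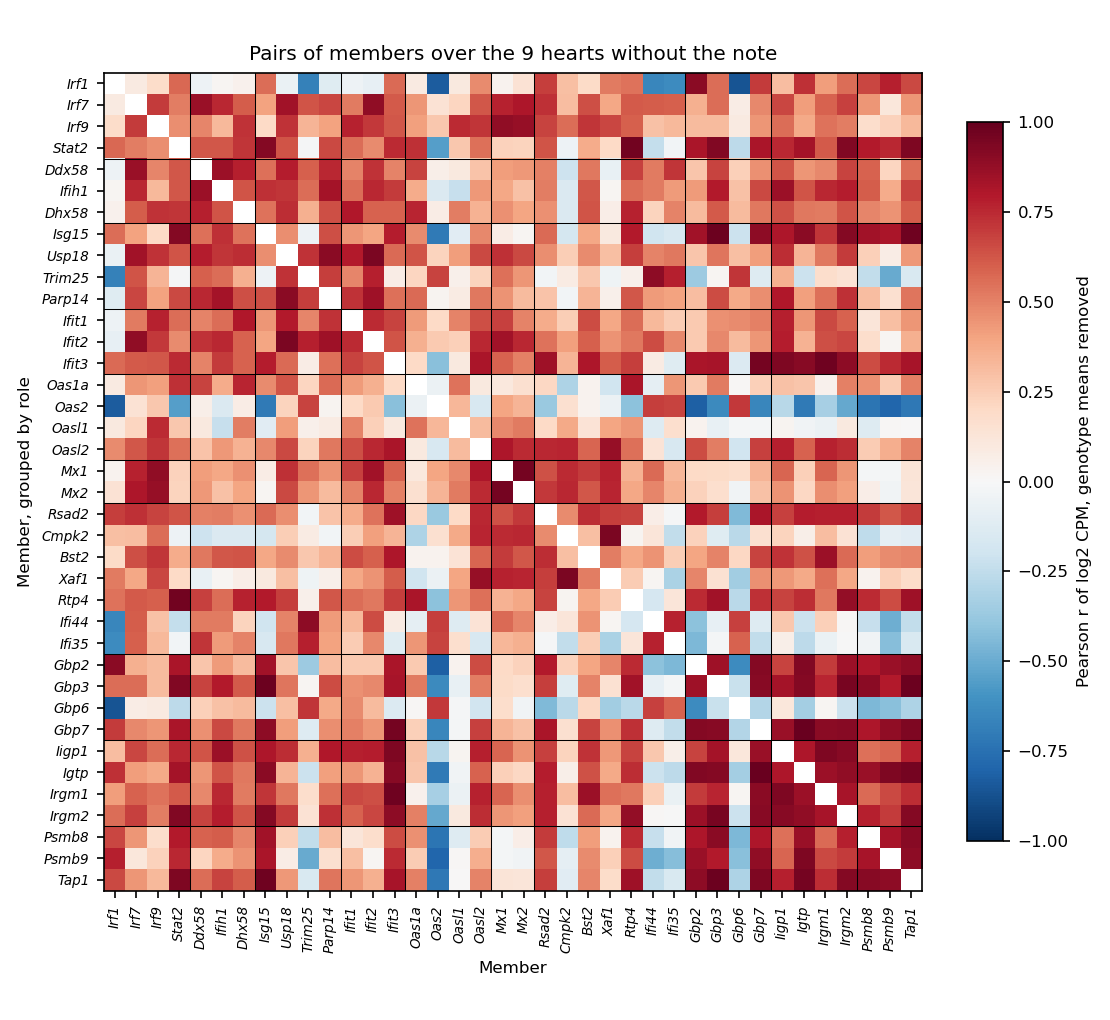
Pearson r of log2 CPM between every pair of the 38 tested members (both axes, grouped by role, lines between roles) over the 9 hearts without the note, with genotype means removed. Most of the map is red (84.6% of pairs above 0), and the Oas2, Gbp6 and Ifi35 rows hold both colours, with r above 0 to 17, 18 and 20 of the 37 other members.

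The title prefix followed these differences between hearts in part. In the 9 libraries without the note, the heart means within C3 were 0.201 and 0.082 in E3A/E3A, 0.031 in WT/E3A and -0.100 in WT/WT. Within C4 they were -0.112 in E3A/E3A and -0.061 and -0.171 in WT/E3A, and the 2 WT/WT hearts of C6 were at 0.065 and 0.066. The 3 C4 hearts without the note were therefore below 0. WT/E3A is the genotype with the most C4 hearts, so prefix and genotype are partly confounded, and the part of either was not tested. Means of the noted libraries average opposite shifts. The noted C4 heart, WT/E3A replicate 1, was at -0.057 with 19 of 38 members above their mean, its IRGs at -1.439 and its OAS family at 0.687. The noted C2 hearts were at 0.166 and 0.065 in E3A/E3A and at 0.056 in WT/WT. In a test of any prefix difference with genotype in the model, edgeR called 0 of 38 members with 13 libraries, against 0% of all genes. At an unadjusted p under 0.05 there were 13 members (34.2%), against 28.7% of genes, and the lowest adjusted p was 0.173, for Ifi35. DESeq2 called 10 members in the same comparison, where it called 21.6% of all genes. Without WT/E3A replicate 1 edgeR called 17 members, against 56.2% of all genes, and the noted libraries are then exactly those of prefix C2. With the 9 libraries edgeR called 0 of 38, against 0.0209% of genes, and 7 members (18.4%) had an unadjusted p under 0.05, against 3.72% of genes. These were Ifit3, Gbp7, Irgm2, Iigp1, Igtp, Dhx58 and Stat2, with p-values of 0.0127 to 0.0311 and an adjusted p of 1. DESeq2 called only Iigp1 of the members there (adjusted p = 0.0441), where it called 0.195% of all genes. Without E3A/E3A replicate 5, edgeR called only Tap1 of the members (adjusted p = 0.0152), against 0.447% of all genes.

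**Figure D4:**
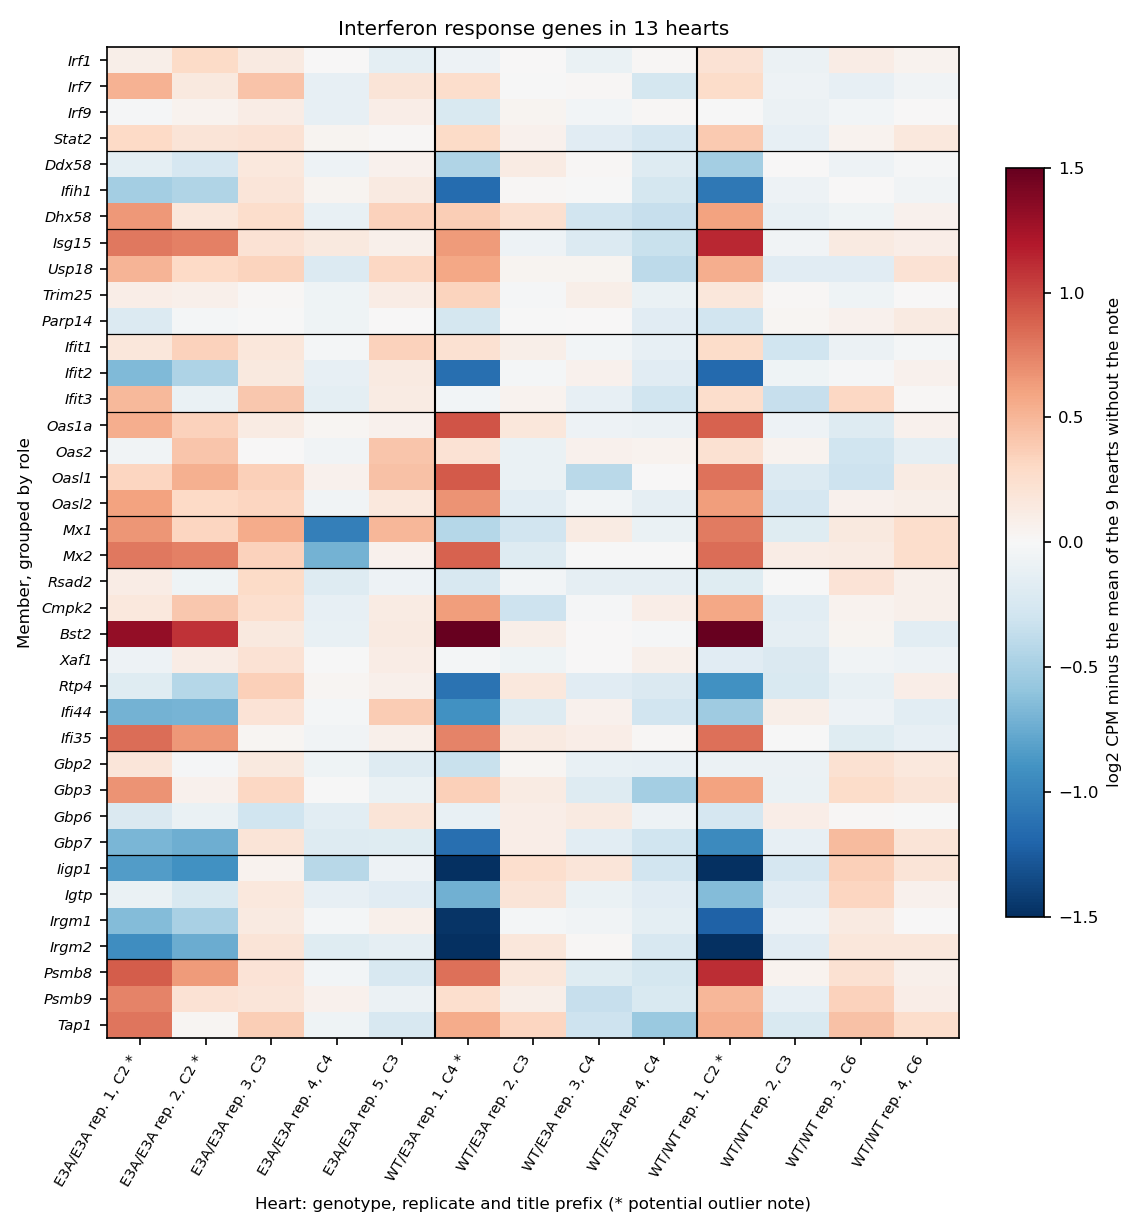
Log2 CPM of the 38 tested members (grouped by role, lines between roles) in 13 hearts, relative to each member's mean over the 9 hearts without the note. Columns run from E3A/E3A to WT/WT with the title prefix, and an asterisk marks a noted library. The 4 asterisked columns hold the strongest colours, red for Bst2 and blue for the IRGs, and E3A/E3A replicate 3 is red in 36 of 38 members.

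The noted libraries stood apart from the other 9 in opposite directions for different members. These differences are described and not tested, since the note may rest on the same data. All 4 noted libraries lay above all 9 others for 6 members (15.8%), against 25.9% of all genes. These were Bst2 (mean 43.6 against 16.7 CPM), Psmb8 (20.8 against 11.4), Isg15 (4.92 against 2.74), Mx2 (3.64 against 2.09), Ifi35 (29.1 against 17.1) and Oas1a (3.49 against 2.13). They lay below all 9 for 7 members (18.4%), against 27.1% of all genes. These were Irgm2 (0.417 times the mean of the others), Iigp1 (0.415 times), Irgm1 (0.533 times), Gbp7 (0.539 times), Ifit2 (0.565 times), Ifih1 (0.583 times) and Ifi44 (0.603 times). The other 25 tested members overlapped.

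The direction followed base composition. Across the 38 members, the log2 difference between noted and other libraries correlated with transcript GC content at r = 0.733 (Spearman rho 0.744), and across 13733 genes at r = 0.658 (rho 0.669). These are correlations across genes, which are not independent replicates. Median GC content was 52.6% for the 6 members above and 42% for the 7 below. Of the 8 tested members under 45% GC, 5 lay below all other libraries and 0 above, while over all genes under 45% GC 62.1% lay below and 4.28% above. Of the 16 members at 50% GC or more, 6 lay above and 0 below, against 42.9% above and 7.67% below over all such genes. Exon length on the log2 scale had r = -0.498 across members and -0.199 across all genes. The part of GC content or length in the differences was not tested. Summed cell type markers also differed with the note for some lists, but markers within a list split. The 7 cardiomyocyte markers came to 120000 to 173000 CPM in the noted libraries and 76300 to 85500 CPM in the others. The macrophage and monocyte markers (10 of 11 listed genes in the files, none at 0 in all libraries) came to 205 to 301 against 141 to 173 CPM, and fibroblast markers to 1190 to 2340 against 917 to 1060 CPM. Of the 7 tested cardiomyocyte markers, 3 lay above in all 4 noted libraries and 1, Pln, lay below, and of the 7 fibroblast markers 2 lay above (Col1a1 and Col1a2) and 2 below (Dcn and Lum). Of 9 macrophage and monocyte markers, 4 lay above (Csf1r, C1qa, C1qb and C1qc) and 2 below (Cd68 and Mrc1). Of 8 endothelial markers, 4 lay above and 1, Cdh5, below. The endothelial sums overlapped, at 1510 to 1870 CPM in the noted libraries against 1240 to 1570 CPM. Sums of plasmacytoid dendritic cell markers went the other way, at 130 to 151 against 168 to 189 CPM. Those of T and NK cells, B cells, neutrophils, erythroid cells, white adipocytes and epicardium overlapped. In whole tissue a different number of cells of a type and a different amount of RNA per cell cannot be told apart. The part of cell makeup in these differences was not tested.

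**Figure D5:**
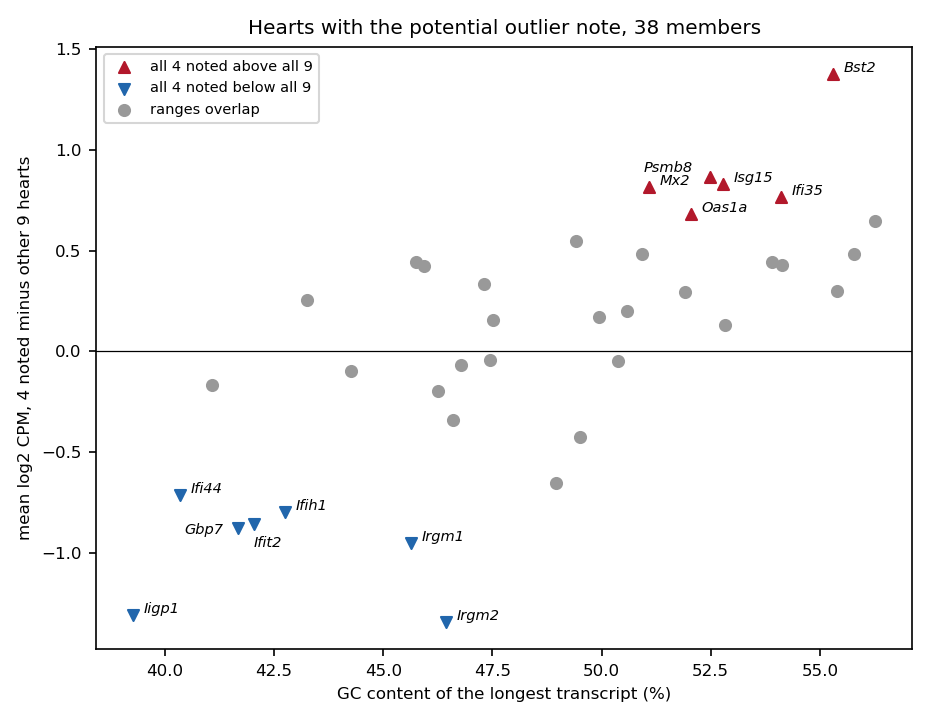
Mean log2 CPM in the 4 noted libraries minus that in the other 9 hearts (vertical axis) against GC content of the longest transcript in percent (horizontal axis) for the 38 tested members. Triangles are members whose 2 sets of libraries do not overlap. The 6 members above all lie at 50% GC or more, and 5 of the 7 below lie under 45%.

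Other genes of the pathway were read from lists chosen by known role. Transcripts of the interferons themselves were close to undetected at this depth. Of 21 interferon genes, none passed the count filter, and their sum was 0 to 0.102 CPM per library, with 1 read of Ifnb1 and 2 reads of Ifng over all 13 libraries. The Ifna genes are near-identical copies, and the handling of reads that fit several genes is not given in the sources used here. Their zeros may therefore be reads left uncounted. The haemoglobin genes, also close copies, are listed at 0 in all 13 libraries. Receptor transcripts were present. Ifnar1, which encodes a chain of the type I receptor, spanned 34.3 to 42.7 CPM in the 9 libraries, and Ifngr1, which encodes a chain of the type II receptor, 43.1 to 54.3 CPM. Ifnar2, the gene of the other chain of the type I receptor, had a log2 fold change of -0.17 (SE 0.06, adjusted p = 0.692) in WT/E3A against WT/WT with 9 libraries.

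Among 13 genes of sensing upstream of interferon, 0 were called. With 9 libraries 10 were higher and 3 lower in E3A/E3A than in WT/WT, and Ikbke, a kinase that activates IRF3 and IRF7, had the lowest p at 0.57 (SE 0.17, adjusted p = 0.275). Of 8 negative regulators 0 were called. With 9 libraries 5 were higher and 3 lower in E3A/E3A against both other genotypes, and with 13 libraries 3 were higher against WT/WT and 4 against WT/E3A. The lowest p was that of Socs1, an inhibitor of Janus kinases, at 0.67 (SE 0.26, adjusted p = 0.701) in E3A/E3A against WT/E3A with 9 libraries. Of 12 genes of class I presentation 0 were called, and Tap2, the partner of Tap1, had the lowest p in E3A/E3A against WT/E3A at 0.22 (SE 0.07, adjusted p = 0.643) with 9 libraries. A further list of 40 interferon-induced genes had 37 tested and 0 called. In E3A/E3A against WT/E3A, 31 of its 37 genes were higher with 9 libraries (median 0.12) and 30 with 13 (median 0.11). Shares over all genes are given above with the members. The hearts are the same as for the members, so this direction is not a separate result. With the prefix block the members' count here was 22 of 38 with 13 libraries and 27 of 38 with 9. Counts with the block are not given for this list. Ifi27l2a had the lowest p in the list, at 0.42 (SE 0.11, adjusted p = 0.178) in E3A/E3A against WT/WT and at 0.34 (SE 0.11, adjusted p = 0.678) against WT/E3A, both with 9 libraries. It spanned 4.96 to 7.48 CPM in the 9 libraries and up to 16.7 CPM with the noted ones.

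Markers of cells that could carry the response are given beside these genotype differences. In the 9 libraries the macrophage and monocyte markers summed to 158 to 173 CPM in E3A/E3A, 151 to 163 CPM in WT/E3A and 141 to 165 CPM in WT/WT hearts. Of 9 tested, 8 were higher in E3A/E3A than in WT/E3A and 7 higher than in WT/WT, with 0 called, and with 13 libraries the counts were 6 and 5. An unadjusted p under 0.05 was found for 2 of the 9 against WT/WT (Csf1r and Mrc1) and for 0 against WT/E3A, with 9 libraries. The 7 fibroblast markers summed to 964 to 1060 CPM in E3A/E3A, 948 to 1040 CPM in WT/E3A and 917 to 962 CPM in WT/WT hearts. All 7 were higher in E3A/E3A than in WT/E3A and than in WT/WT in the 9 libraries, with 0 called, and with 13 libraries 4 and 5 were. Col1a1, a chain of collagen, had the lowest p against WT/WT, at 0.20 (SE 0.05, adjusted p = 0.159), and Dpt and Col1a2 also had an unadjusted p under 0.05. Against WT/E3A only Pdgfra of the 7 did, at 0.16 (SE 0.07, adjusted p = 0.717). The 8 endothelial markers summed to 1340 to 1570 CPM in E3A/E3A, 1240 to 1410 CPM in WT/E3A and 1370 to 1430 CPM in WT/WT hearts. With 9 libraries all 8 were higher in E3A/E3A than in WT/E3A, with 0 called. Of these, 4 had an unadjusted p under 0.05 (Pecam1, Cldn5, Egfl7 and Cdh5), and none did with 13 libraries. Over all genes 6.91% had such a p against WT/E3A and 7.69% against WT/WT with 9 libraries. Shares of all genes that were higher in each comparison are given above with the members. Against WT/WT only Esam had such a p, at 0.20 (SE 0.09, adjusted p = 0.632) with 9 libraries, and none did with 13. T and NK cell markers summed to 1.77 to 2.81 CPM in E3A/E3A, 1.67 to 2.08 CPM in WT/E3A and 1.46 to 2.17 CPM in WT/WT hearts, and 1 of the 10 in the files had enough reads to be tested. The 6 plasmacytoid dendritic cell markers summed to 168 to 189 CPM in the 9 libraries, with Tcf4 at 152 to 170 CPM. Bst2, also a member, was at 14.9 to 18.4 CPM. Siglech, a marker on that list, stayed at or under 0.38 CPM in the 9 libraries and reached 0.535 CPM with the noted ones. Its fold change in E3A/E3A against WT/WT was 0.67 (SE 0.28, edgeR unadjusted p = 0.0354) with 13 libraries, and it was not called. The part of cell makeup in the genotype differences was not tested.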

How the data were processed

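The deposited values are counts of reads per gene symbol, 1 file per heart, made by the authors. Per the submitters' processing notes, STAR 2.4.0 and featureCounts 1.4.4 were used on mm10 (GRCm38). Per the labels' protocols, reads were single-end, 100 nt, from an Illumina HiSeq. The sources used here do not give the annotation, the strand setting or how multi-mapping reads were handled. The haemoglobin genes Hba-a1, Hba-a2, Hbb-bs and Hbb-bt are listed at 0 in all 13 libraries. Files were checked for whole numbers and identical values (0 pairs). The lowest chi-square per degree of freedom between 2 libraries of a genotype was 4.4, over 22 pairs. No column of per-sample values was left unused.

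In R 4.3.3, edgeR 4.0.16 filtered genes with filterByExpr by genotype (minimum count 10), scaled by TMM and ran 1 robust quasi-likelihood fit over the 3 genotypes, with Benjamini-Hochberg adjustment over all genes tested (14387 with 13 libraries, 14373 with 9). Members were read out of the whole table. Correlations and SDs used log2 CPM with a prior count of 2. Alternatives were RLE size factors, no low-count filter, DESeq2 1.42.0, voom in limma 3.58.1, the title prefix as a block, leaving out each library, and a prior count of 0.5. An adjusted p that DESeq2 left empty was kept empty. Exon lengths, GC content and positions are from GENCODE on GRCm38, and promoters from RefSeq on GRCm38.p6. Scripts were tested on simulated data. The labels name no molecular identifiers, so intervals cannot separate duplicate reads from molecules.

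The members, lists, tests and alternatives were chosen with earlier results of these data known. Values in every heart and fold changes are given for the 3 members with the lowest p in each genotype comparison and fit, and values in every heart for the 5 highest per kb, the 5 with the largest SD and the highest of each role. Stat2, Oasl2, Ifi44, Gbp7 and Irgm2 were added after their values were seen. Counts over the list of receptors and kinases are not reported here.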

Additional observations from a re-analysis of the deposited data

Results flagged for a closer look

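Within a genotype, a heart was singled out where its gap to the nearest other heart of that genotype was large for the range of the whole group (Dixon's test at the 95% level). Chance singles out about 1 in 20 groups. Here 114 groups were tested (38 members in 3 genotypes), and 14 values were singled out, 13 of them in noted libraries. That is 12.3% of the member groups, against 23.4% of 43161 groups over all genes tested. Over all genes, 96% of the values singled out were in noted libraries. The 13 noted values were all in WT/E3A replicate 1 and WT/WT replicate 1. The test looks for 1 heart apart from the rest, and E3A/E3A holds 2 noted libraries. Where these lie close together, neither is singled out. For Isg15 they were at 4.76 and 4.64 CPM, against 2.86 to 3.16 CPM in the other E3A/E3A hearts. The test is therefore a weak guide to whether the noted E3A/E3A libraries stood apart. WT/E3A replicate 1 stood above the 3 other WT/E3A hearts in Oasl2 (14.5 against 8.15 to 8.82 CPM), Bst2 (48.2 against 16.4 to 17.8 CPM) and Ifi35 (28.6 against 17.3 to 18.6 CPM). WT/E3A replicate 1 stood below the 3 other WT/E3A hearts in Irgm1 (7.05 against 17.7 to 19.2 CPM). WT/WT replicate 1 stood above the 3 other WT/WT hearts in Isg15 (6.02 against 2.61 to 2.99 CPM), Bst2 (49.5 against 14.9 to 17.1 CPM), Ifi35 (30.3 against 15.1 to 16.9 CPM) and Psmb8 (24.3 against 11.7 to 13.2 CPM). WT/WT replicate 1 stood below the 3 other WT/WT hearts in Ddx58 (13.7 against 18.5 to 19.6 CPM), Ifih1 (5.91 against 11.9 to 12.6 CPM), Ifit2 (8.22 against 17.7 to 19.4 CPM), Irgm1 (8.43 against 18.6 to 21.6 CPM) and Irgm2 (7.05 against 23.3 to 29.6 CPM). The remaining value was in a library with no note, Mx1 in E3A/E3A replicate 4, at 0.234 CPM against 0.669 to 0.865 CPM in the 4 other E3A/E3A hearts. No explanation of these values was tested.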

How the results depend on the processing

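The count of members called between genotypes was 0 in all 3 comparisons, with 13 and with 9 libraries, under RLE size factors, no low-count filter, DESeq2, limma-voom, the title prefix block and each library left out. The title prefix block turned the direction of 4 named fold changes in WT/E3A against WT/WT, to 0.0818 for Gbp2, 0.0754 for Rsad2 and 0.25 for Mx1 with 13 libraries and to 0.0738 for Psmb9 with 9. None was past the threshold before or after, and the cause was not tested. For any prefix difference, edgeR called 0 members, whereas DESeq2 called 10 with 13 libraries, against 21.6% of all genes, and 1 with 9, against 28 of 14373 genes. Leaving out 1 library each gave 0 to 17 members with 13 libraries, 17 without WT/E3A replicate 1 (56.2% of all genes), and 0 to 1 with 9, the 1 without E3A/E3A replicate 5 (65 of 14533 genes). The prefix test without WT/WT replicate 2 could not be fitted with 9 libraries. RLE size factors left 6 members above and 7 below in the noted libraries. No paired analysis was possible because the replicate numbers were given in accession order and pair no hearts. Depth limits Mx1 and Oas3 most, with as few as 8 and 2 reads in a library.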
